A study of Homo sapiens with 12 samples.

Results

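SEM-K2, an established cell line of acute lymphoblastic leukaemia, was compared after 6 h with obatoclax at 3 times its 72 h EC50 (written 3xEC50) and after 6 h with vehicle. The comparison rests on 4 of the 12 arrays of the study, 2 for each condition, chosen by their labels alone, and covers 10561 genes. The other 8 arrays were SEM-K2 at EC50 and RS4:11, a second cell line, with vehicle, EC50 and 3xEC50, each with 2 biologic replicates. Cells of both lines were treated a day after plating, and RNA was measured on Affymetrix U133 Plus 2 arrays. EC50 denotes the dose that gives an effect midway between none and the maximum, and its value in either line was not given in the sources used here. Whether the replicates came from separate passages is not in the labels, and the p-values therefore cover only the spread among these samples, which may in part be technical.

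Both lines have the KMT2A-AFF1 fusion, also called MLL-AF4, which arises in B cell precursors and is known for a poor outcome in infants. Obatoclax is a small molecule designed to occupy the groove by which antiapoptotic BCL2 proteins hold their BH3 partners, so that BAX and BAK can open the outer mitochondrial membrane. Transcripts are a downstream readout of such a compound, and a change in RNA after several hours can be direct or secondary. In a bulk culture, a change in the mix of cells and a change within each cell cannot be told apart.

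Values are log2 GCRMA values, on which 1 unit is a 2-fold step. A value of 4 was used as the floor below which a probe set was not read as above background. Changes are 3xEC50 minus vehicle, given with ± and the standard error (SE) from limma. Limma was fitted over all 12 arrays, which share 1 estimate of the spread. A gene is said to have risen or fallen where its Benjamini-Hochberg adjusted p over all genes was under 0.05. A fold against a mean below 4 was computed from the floor and is a lower bound. The levels of different genes are not comparable, because each probe set has its own affinity.

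The line was checked against markers of cell types. Of 19 markers of B cell precursors, 17 exceeded the floor on at least 1 SEM-K2 array, against 4 of 21 for T and NK cells, 4 of 17 for myeloid cells, 5 of 22 for fibroblasts and epithelium and 2 of 12 for erythroid cells and platelets. The 4 for T and NK cells were LCK (9.09 to 9.98), ZAP70 (8.55 to 9.48), NKG7 (7.06 to 9.49) and LAT (4.09 to 4.87). The summed level of the T and NK markers was 10.43 to 11.08 in vehicle and 10.66 to 11.14 at 3xEC50. The summed level of the B cell precursor markers was 14.75 to 14.97 in vehicle and 14.78 to 15.21 at 3xEC50. That of the myeloid markers was 8.21 to 8.27 in vehicle and 8.41 to 8.55 at 3xEC50, and 13 of the 17, with CD14, MPO and LYZ among them, were below the floor on every SEM-K2 array. CSF1R (6.29 to 6.46) and AIF1 (6.59 to 7.53) were above it on every SEM-K2 array, and VCAN reached 4.73. MS4A7 read 2.92 and 3.08 in vehicle and 3.87 and 5.25 at 3xEC50, and was called by limma with the replicate block (1.56, adjusted p = 0.0315) and not without it. A sign of RNA quality set SEM-K2 3xEC50 replicate 2 apart. The log2 difference between its 3' and 5' control probe sets was 1.97 for ACTB and 0.61 for GAPDH, against 0.87 to 1.23 and 0.08 to 0.30 on the other arrays. Its correlation with replicate 1 was 0.987, where the arrays of the other groups correlated at 0.991 to 0.996.

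Genes that rose outnumbered those that fell. Of the 10561 genes, 66 rose (0.625%) and 21 fell (0.199%), and no called gene had groups that overlapped. Over the whole ranking both 3xEC50 arrays lay above both vehicle arrays for 2382 genes (22.6%) and below both for 1479 (14%). The median change of all genes was 0.06, 58.6% of genes lay above 0, and the middle of the ranking, from the 5th to the 95th percentile, ran from -0.51 to 0.68. These shares of all genes are the background for the list counts below. Counted from the floor, 155 genes were higher by at least 1 log2 unit, of which 50 were called, and 94 were lower by as much, of which 16 were called. At 2 log2 units these counts were 19 with 13 called and 11 with 3 called. An unadjusted p under 0.05 was seen for 854 genes upward and 378 downward. The smallest change that was called was 0.82 among the rises and 0.78 among the falls.

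**Figure D1:**
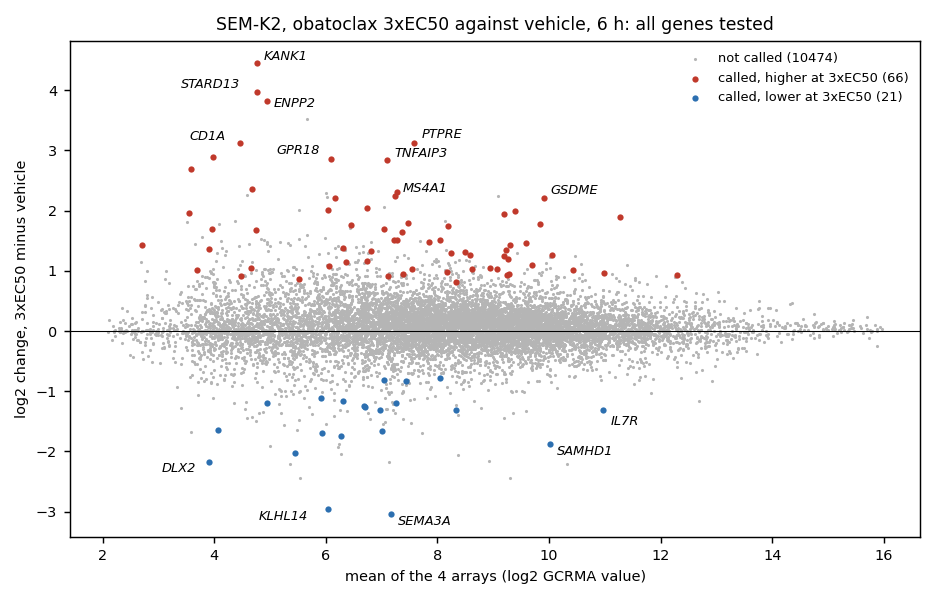
Log2 change, SEM-K2 at 3xEC50 minus vehicle, on the y axis against the mean log2 GCRMA value of the 4 arrays on the x axis, 1 point per gene tested. The 66 red and 21 blue genes were called by limma, the largest changes among them being the rises of KANK1 and STARD13 and the falls of SEMA3A and KLHL14.

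The calls depended on single arrays, and also on arrays outside the comparison, which enter only through the shared spread and its degrees of freedom. Fewer genes were called when any 1 of these outside arrays was left out. With only the 6 arrays of this line in the fit, 3 genes were called. The count of 87 became 14 without vehicle replicate 2. It became 18 without 3xEC50 replicate 2, whose control probe sets had the high 3' to 5' difference. Without vehicle replicate 1 it became 169. With 3xEC50 represented by replicate 2 alone it became 151, with 55 genes up and 96 down. PTPRE, KANK1, ENPP2, STARD13, MS4A1, GSDME, CD1A, BACH2, SLC17A5 and DLX2 were the 10 genes that stayed called when any 1 of the 12 arrays was left out. With the replicate number as a block, 220 genes were called (2.08%), 164 up and 56 down, and all 87 were among them. The block added the cystatin gene CST7 (2.25, adjusted p = 0.00201 with the block in limma), the ATP receptor gene P2RX7 (1.29), the sorting receptor gene SORL1 (1.23), the pre-B receptor gene VPREB3 (1.30) and RRAGD, a RAG GTPase (1.13).

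Genes of the cell cortex and the actin cytoskeleton were among the 66 that rose. KANK1, a scaffold at the cell cortex that restrains actin polymerisation, read 2.54 and 2.54 in vehicle and 6.78 and 7.19 at 3xEC50. The vehicle arrays were below the floor and both treated arrays well above it, a rise of at least 7.93-fold (4.45 ± 0.17, adjusted p = 7.21e-06 in limma). Of the 3 probe sets of KANK1, only this 1 exceeded the floor on any array. STARD13, which encodes a protein with a lipid-binding START domain, read 2.80 and 2.76 in vehicle and 6.05 and 7.46 at 3xEC50. It also came up from below the floor, at least 6.75-fold (3.97 ± 0.36, adjusted p = 0.00175 in limma), with the treated arrays 1 unit or more apart. The actin genes CAPG, which caps filament ends (1.47 ± 0.26), and FMNL1, a formin of blood cells (1.16 ± 0.17), rose, as did ABR, a regulator of Rac (1.47 ± 0.26). PLEK, the gene of pleckstrin, a protein kinase C substrate of blood cells, rose by 1.51 ± 0.28 with an adjusted p of 0.049 in limma, just inside the threshold.

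ENPP2 and S1PR2, which act in lysophospholipid signalling, rose as well, and so did GPR18 of the same list. ENPP2 encodes autotaxin, a secreted enzyme that makes lysophosphatidic acid, and read 2.89 and 3.18 in vehicle and 7.04 and 6.66 at 3xEC50. It rose at least 7.22-fold from below the floor (3.82 ± 0.30, adjusted p = 6.62e-04 in limma), and its other probe set above the floor gave 3.28. GPR18, a G protein-coupled receptor of lymphocytes, read 5.28 and 4.06 in vehicle and 7.81 and 7.22 at 3xEC50. The groups were apart although the vehicle arrays differed by more than 1 unit, and the rise was 7.21-fold (2.85 ± 0.38, adjusted p = 0.0135 in limma). S1PR2, a receptor for sphingosine 1-phosphate, rose by 1.15 ± 0.19. The list was drawn wider than lysophospholipid signalling, with GPR18 and P2RY8 on it. Of its 12 genes tested, 3 rose and 0 fell, where 0.625% and 0.199% of all genes did. All 12 lay above 0, as did 58.6% of all genes, and the list median was 0.41. This median was 0.19 without 3xEC50 replicate 1 and 0.82 without 3xEC50 replicate 2. The fourth by p was P2RY8, a receptor that confines B cells to germinal centres (1.11 ± 0.21, adjusted p = 0.0576 in limma, and 0.0119 with the block). When vehicle replicate 2 or 3xEC50 replicate 2 was left out, 1 of the 12 rose. RGS1, which shuts off G protein signalling downstream of such receptors, rose 3.98-fold (1.99 ± 0.34), from 8.53 and 8.24 to 10.62 and 10.13.

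NF-kappaB is held in the cytoplasm by inhibitors such as NFKBIA and, once released, induces those same inhibitors, which ends the signal. TNFAIP3, the gene of the ubiquitin-editing enzyme A20, read 6.49 and 4.88 in vehicle and 8.49 and 8.54 at 3xEC50. The treated arrays lay close together and the vehicle arrays 1 unit or more apart, with a rise of 7.13-fold (2.83 ± 0.41, adjusted p = 0.0167 in limma). NFKBIA rose from 8.95 and 8.24 to 9.99 and 10.05 (1.42 ± 0.24, adjusted p = 0.0387 in limma). CD40, a costimulatory receptor that activates the pathway and is also a target of it, rose from 5.24 and 4.90 to 7.46 and 7.09 (2.20 ± 0.25). CD83, a marker of activated B and dendritic cells, rose from 5.62 and 5.52 to 7.12 and 7.55 (1.76 ± 0.22). With PLEK these were the 5 genes that rose among 25 feedback and target genes tested. None fell, 23 lay above 0, and the median was 0.73, against 0.06 for all genes. The subunit gene RELB stood at 1.32 ± 0.55 (adjusted p = 0.384) and NFKB2 at 0.51 ± 0.56 (adjusted p = 0.79), and neither was called by limma. Both were high on 3xEC50 replicate 1 and not on replicate 2, at 6.53 and 4.74 for RELB and 7.07 and 5.18 for NFKB2. Of the 25, 1 rose when vehicle replicate 2 or 3xEC50 replicate 2 was left out, and the median over these settings stayed between 0.47 and 0.81.

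The promoters of NFKBIA and TNFAIP3 hold matches to GGNNTTTCC, letters taken from the NF-kappaB motif. They are shown because both genes rose and belong to the textbook feedback of that factor. The sequences are those of RefSeq on GRCh38.p14, 5′ to 3′ on the strand of the gene, with the match in capitals. The windows lie at chr14:35404953-35404999 and chr14:35404792-35404860 (minus strand) for NFKBIA and at chr6:137867162-137867242 (plus strand) for TNFAIP3, all upstream of the first listed start of the gene.
NFKBIA distal: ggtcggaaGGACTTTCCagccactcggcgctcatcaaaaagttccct
NFKBIA proximal: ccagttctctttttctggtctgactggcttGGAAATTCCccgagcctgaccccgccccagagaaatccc
TNFAIP3: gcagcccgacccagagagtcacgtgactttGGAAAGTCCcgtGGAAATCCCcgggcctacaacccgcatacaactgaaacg
The letters searched were GGNNTTTCC on both strands in the 250 bases before each start. They were found in 6 of the 53 risen genes with a promoter in the table (11.3%), in 2 of 13 fallen genes (15.4%) and in 5.93% of the 8729 tested genes with a promoter. Besides NFKBIA and TNFAIP3 the risen genes with a match were COL15A1, MTMR14, OAS3 and PPP1R15A. A match describes the letters only.

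Surface proteins of B cells moved in both directions. MS4A1, the gene of CD20, which appears as B cell precursors mature, read 6.46 and 5.79 in vehicle and 8.46 and 8.27 at 3xEC50. It rose 4.74-fold (2.24 ± 0.22, adjusted p = 0.00295 in limma), and its 4 probe sets above the floor ran from 1.46 to 3.04. IL7R, the receptor by which B cell precursors receive interleukin 7, read 11.63 and 11.64 in vehicle and 10.45 and 10.19 at 3xEC50. Both treated arrays were lower, a 2.48-fold fall (-1.31 ± 0.16, adjusted p = 0.00884 in limma). TLR10, a Toll-like receptor of B cells, fell from 7.31 and 6.96 to 5.82 and 4.96 (-1.75 ± 0.32, adjusted p = 0.049 in limma). With CD40 and CD83, 3 of 31 surface receptors tested rose and 2 fell, where 0.625% and 0.199% of all genes did. The list median was 0.39. Without vehicle replicate 2 these counts were 1 and 0 and the median was 0.08, and without 3xEC50 replicate 2 the counts were 2 and 0. The median was 0.12 without 3xEC50 replicate 1 and 0.62 without vehicle replicate 1. Of 27 genes of the pre-B receptor, recombination and proximal signalling, 0 were called by limma, the median was also 0.39, and the smallest p-values were those of the adaptor genes BANK1 (0.69 ± 0.19) and GRB2 (0.50 ± 0.15). This median was 0.02 without 3xEC50 replicate 1, when 14 of the 27 lay above 0, and 0.09 without vehicle replicate 2. VPREB3, a surrogate light chain partner, stood at 1.30 ± 0.43 (adjusted p = 0.289 in limma) and was the 1 gene of the 27 called with the block (adjusted p = 0.0124).

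CD1A, which presents lipid antigens to T cells, read 2.61 and 3.19 in vehicle and 5.80 and 6.23 at 3xEC50. It came up from below the floor at least 4.04-fold (3.12 ± 0.22, adjusted p = 4.99e-04 in limma). It was the 1 gene that rose among 27 genes of antigen presentation, where 0.625% of all genes rose. Of the 27, 26 lay above 0, as did 58.6% of all genes, and the list median was 0.37. Examples were HLA-B at 0.48 ± 0.18 and the peptide-loading gene TAPBP at 0.55 ± 0.19. Without vehicle replicate 2 the median was 0.18, with 20 above 0, and without vehicle replicate 1 it was 0.62. Other surface genes that rose were CD109, a GPI-anchored protein that binds TGF-beta (1.89 ± 0.23, from 10.36 and 10.29 to 11.96 and 12.47), the inhibitory receptor gene CD300LF (at least 3.01-fold over the floor) and the syndecan gene SDC2 (1.32 ± 0.23). The adaptor gene PAG1, which brings the inhibitory kinase CSK to lipid rafts, rose from 6.45 and 6.71 to 7.89 and 8.84 (1.79 ± 0.32).

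Lysosomes digest what autophagy and endocytosis deliver, and their genes are induced by TFEB and TFE3 when folliculin (FLCN) and the RAG GTPases no longer hold these factors in the cytoplasm. FLCN read 5.59 and 5.63 in vehicle and 7.00 and 6.99 at 3xEC50, the replicates lying within 0.1 of each other in both groups. It rose 2.61-fold (1.38 ± 0.15, adjusted p = 0.00581 in limma). Its binding partner FNIP2 rose from 8.54 and 8.56 to 9.57 and 9.61 (1.04 ± 0.14), and RRAGC, a RAG GTPase that passes the amino acid signal to mTORC1, from 8.23 and 7.96 to 8.94 and 9.32 (1.03 ± 0.17). These 3 of 27 genes of folliculin, the RAG GTPases and TFEB rose and 0 fell, at a median of 0.25 (0.18 without vehicle replicate 2 and 0.46 without vehicle replicate 1). FNIP1, the other partner of FLCN, stood at 0.75 ± 0.18 (adjusted p = 0.135 in limma). Without vehicle replicate 2, 0 of the 27 rose, and without 3xEC50 replicate 2, 1 did.

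SLC17A5 encodes sialin, which exports sialic acid from lysosomes, and read 8.47 and 7.97 in vehicle and 10.00 and 10.33 at 3xEC50. It rose 3.86-fold (1.95 ± 0.21, adjusted p = 0.00478 in limma), and its second probe set gave 2.26. GM2A, a cofactor for ganglioside breakdown, rose by 1.32 ± 0.23 on this probe set, whereas the lowest of its 6 probe sets stood at -0.17. Among hydrolases, NEU1, the sialidase that frees sialic acid, rose from 7.73 and 6.86 to 8.81 and 8.79 (1.51 ± 0.28, adjusted p = 0.049 in limma). ASAH1, acid ceramidase, rose from 10.47 and 10.55 to 11.52 and 11.43 (0.97 ± 0.14). In all 2 of 41 lysosomal membrane genes and 2 of 28 hydrolases rose, 0 of either fell, and their medians were 0.34 and 0.26. These were 0.21 and 0.11 without vehicle replicate 2, and the second was 0.44 without vehicle replicate 1. MCOLN2, a lysosomal cation channel, lay at the other end of its list (-1.44 ± 0.27, adjusted p = 0.0561 in limma, and 0.0305 with the block). Without vehicle replicate 2, or without 3xEC50 replicate 1, 1 membrane gene and 0 hydrolases rose. With 3xEC50 replicate 2 left out, 1 of each rose. BRI3, whose product lies in the lysosomal membrane, rose by 1.77 ± 0.22 on 1 of 2 probe sets above the floor, the other giving 0.22. LYST, a regulator of lysosome size, rose by 1.69 ± 0.25 on 1 of 2 probe sets, the other giving -0.01.

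Of 42 autophagy genes 1 rose, the cargo receptor gene SQSTM1 (p62), from 9.60 and 9.25 to 10.50 and 10.88 (1.27 ± 0.20, adjusted p = 0.0266 in limma), with 0.17 for the lowest of its 3 probe sets. MAP1LC3B, which coats autophagosomes, stood just outside the threshold at 0.95 ± 0.18 (adjusted p = 0.0593 in limma). With the block 4 of the 42 rose, SQSTM1 and MAP1LC3B (adjusted p = 0.0357) together with EPG5, which tethers autophagosomes to lysosomes, and the cargo receptor gene OPTN. The list had a median of 0.19 (0.13 without vehicle replicate 2 and 0.27 without vehicle replicate 1), and without vehicle replicate 2 or without 3xEC50 replicate 2 none of its genes was called. Genes of phosphoinositides and endosomes outside the list also rose, namely MTMR14, a phosphoinositide phosphatase (1.04 ± 0.17), WDFY1, an endosomal protein (1.19 ± 0.18), and CDS2, which makes the precursor of phosphoinositides (1.26 ± 0.17).

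NEU1 and RRAGC hold an E-box, the kind of site that TFEB and other basic helix-loop-helix factors can bind, and their windows are shown for that reason. They lie at chr6:31862912-31862977 for NEU1 and chr1:38859849-38859914 for RRAGC, both on the minus strand of GRCh38.p14 (RefSeq), with CACGTG in capitals.
NEU1: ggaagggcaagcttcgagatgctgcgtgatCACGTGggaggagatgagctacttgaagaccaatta
RRAGC: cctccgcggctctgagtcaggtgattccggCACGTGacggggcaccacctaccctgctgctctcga
CACGTG, read on both strands, was present in 6 of 53 risen genes (11.3%), 3 of 13 fallen genes (23.1%) and 9.31% of the tested genes. GTCACGTG, which contains it, was present in 4 of the risen genes (7.55%), RRAGC, BRI3, PPFIBP2 and TNFAIP3, in 1 fallen gene (7.69%), DLX2, and in 4.33% of the tested genes. TGANTCA, the AP-1 motif, was present in 4 risen genes (7.55%), in 1 fallen gene (7.69%), KIF21A, and in 3.37% of the tested genes. GTAAACA, a FOXO motif, was in 3 risen genes (5.66%), 0 of 13 fallen genes and 1.81% of the tested genes. TGATGNAAT, a composite of CHOP and ATF4, was in 0 of the 53, 0 of the 13 and 0.447% of the tested genes, and no match says only that these letters are not in the window.

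**Figure D2:**
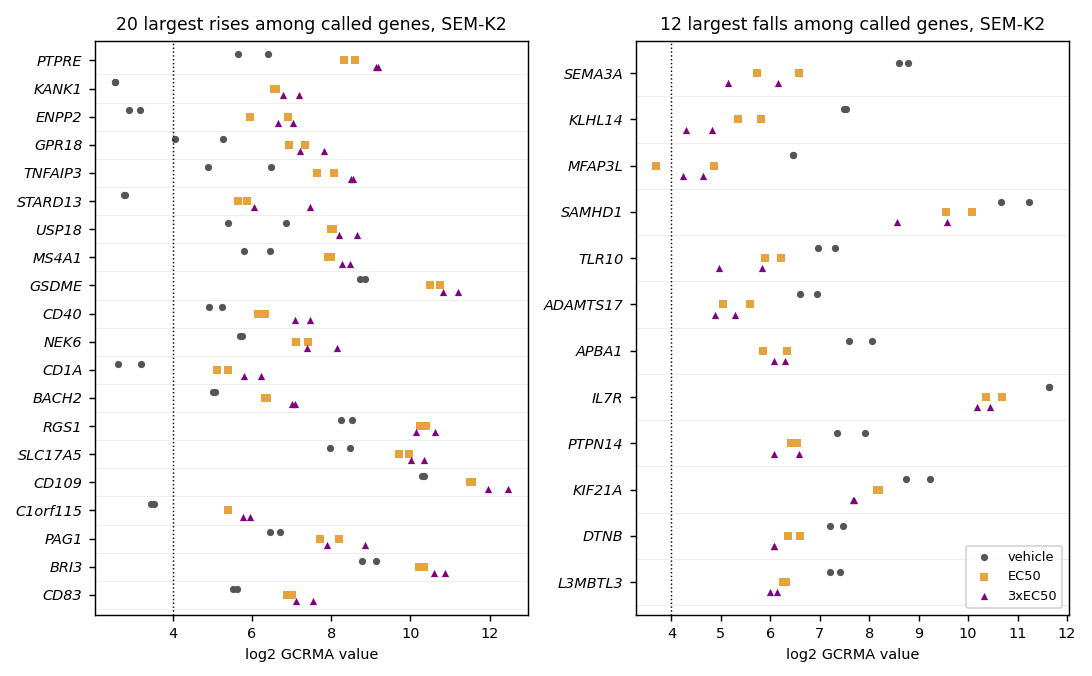
Log2 GCRMA values of the 6 SEM-K2 arrays for the 20 largest rises and the 12 largest falls among called genes, ranked from the floor (dotted line at 4), with 1 symbol per array for vehicle, EC50 and 3xEC50. In each gene shown the vehicle and 3xEC50 arrays do not overlap, and the EC50 arrays lie on the treated side.

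Protein tyrosine phosphatases gave the largest rise among called genes, counted from the floor. PTPRE, a phosphatase with receptor and cytosolic forms that acts on Src kinases, read 6.42 and 5.64 in vehicle and 9.18 and 9.12 at 3xEC50. It rose 8.71-fold (3.12 ± 0.33, adjusted p = 0.00476 in limma). Its other probe set above the floor gave 0.01, the widest disagreement between probe sets of any called gene. DUSP10, which inactivates the stress kinases p38 and JNK, rose from 6.69 and 6.37 to 8.29 and 8.08 (1.65 ± 0.21), while PTPN14, which acts at cell junctions, fell from 7.34 and 7.92 to 6.07 and 6.57 (-1.31 ± 0.23). Of 31 phosphatases 2 rose and 1 fell, and without vehicle replicate 2 or 3xEC50 replicate 2 the counts were 1 and 0. Kinase genes that rose were NEK6, a mitotic kinase (2.04 ± 0.37, with probe sets from -0.15 to 2.63), and CAMK2G, a calcium-dependent kinase (1.29 ± 0.21). IRS2, an adaptor of the insulin receptor that FOXO factors induce, rose by 0.82 ± 0.14. Its call was lost whichever array was left out, as were the calls of ADAMTS17, DTX4, CABLES1, PDXDC1 and PAQR8. IL7R, another FOXO target, fell, so 1 of 29 FOXO and insulin feedback genes rose and 1 fell, at a median of 0.12 (0.02 without 3xEC50 replicate 1). With the block 2 rose, the added gene being GADD45B (0.88). Of 29 MAPK feedback and immediate early genes 0 were called by limma, at a median of 0.32 (0.09 without vehicle replicate 2 and 0.64 without vehicle replicate 1), with the smallest p for the RNA-binding protein gene ZFP36L2 (0.88 ± 0.21) and JUND, an AP-1 subunit (1.10 ± 0.29). With the block both were called, at adjusted p-values of 0.0187 and 0.0471. Over these 29, 10 genes had both treated arrays above both vehicle arrays, as did 22.6% of all genes. ABHD17C, which removes palmitate from signalling proteins, rose by 1.75 ± 0.22.

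BACH2, a repressor that holds B cells back from plasma cell fate, was the B lineage transcription factor with the largest rise. It read 5.06 and 5.01 in vehicle and 7.00 and 7.09 at 3xEC50, 4.03-fold higher with replicates within 0.1 of each other (2.01 ± 0.17, adjusted p = 0.00105 in limma). MYB, a factor of blood progenitors that is also a target of KMT2A fusions, rose from 11.81 and 11.85 to 12.65 and 12.89 (0.93 ± 0.15). These were 2 of 32 B lineage factors, of which 0 fell, at a median of 0.11. This median was -0.10 without 3xEC50 replicate 1 and 0.21 without 3xEC50 replicate 2. Only 1 rose without vehicle replicate 2 or 3xEC50 replicate 2, and with the block IKZF2 (-0.85) also fell. PAX5, which fixes B cell identity, stood at -0.20 ± 0.14 and was not called. Of 19 targets of KMT2A fusions MYB rose and none fell, and EYA1, a developmental phosphatase and cofactor, stood at 1.02 ± 0.24 (adjusted p = 0.126 in limma). TFDP2, a partner of E2F factors (1.03 ± 0.16), rose too. SETBP1, a DNA-binding protein mutated in myeloid leukaemias, rose at least 1.44-fold from vehicle arrays below the floor, and its treated arrays, at 4.21 and 4.85, were barely above it. SETBP1 passed the filter on low values only through these arrays, so a rise was built into its being tested. DLX2, a homeobox gene, read 4.99 and 4.98 in vehicle and 2.98 and 2.66 at 3xEC50. Both treated arrays were below the floor, so the gene fell at least 1.98-fold (-2.17 ± 0.15, adjusted p = 4.99e-04 in limma). Its neighbour in the genome DLX1 stood at -1.08 ± 0.32 (adjusted p = 0.242), and DLX2 was the 1 called gene of 26 homeobox genes tested.

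GSDME, the gene of gasdermin E, which forms membrane pores once a caspase has cut it, rose, while none of the BCL2 family did. GSDME read 8.74 and 8.85 in vehicle and 10.83 and 11.19 at 3xEC50, 4.64-fold higher (2.21 ± 0.17, adjusted p = 5.94e-04 in limma). Of the 6 antiapoptotic BCL2 genes, against whose products obatoclax was designed, 4 passed the filter on low values and 0 were called, with 1 at an unadjusted p under 0.05. BCL2 read 10.70 and 10.80 in vehicle and 11.08 and 11.07 at 3xEC50 (0.33 ± 0.13, adjusted p = 0.363 in limma). MCL1 read 11.33 and 11.21 against 11.24 and 11.62 (0.16 ± 0.17), and its groups overlapped. BCL2L2 stood at 0.43 ± 0.22. BCL2L1 read 6.00 and 5.41 against 6.30 and 3.67, and the low value was on 3xEC50 replicate 2, whose 3' to 5' difference was high (-0.72 ± 0.72). Of 10 BH3-only and effector genes 0 were called, the smallest p-values being those of BCL2L11, the gene of BIM (0.67 ± 0.25), and BAD (-0.42 ± 0.17). Of 15 necroptosis and death receptor genes 0 were called, with CYLD, a deubiquitinase of the receptor complex, at 0.80 ± 0.20 (adjusted p = 0.161) and TNFRSF1A, the main TNF receptor, at 0.74 ± 0.26.

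Stress genes under ATF4, which supply amino acids and adjust translation, were split. PPP1R15A, which restarts translation after stress, rose from 6.87 and 6.08 to 7.95 and 8.01 (1.51 ± 0.25, adjusted p = 0.0312 in limma). DDIT3, the gene of CHOP, lay just outside the threshold (1.15 ± 0.22, adjusted p = 0.0588), from 7.46 and 7.32 to 8.42 and 8.67. Of 33 such genes PPP1R15A was the 1 called, 17 lay above 0, and the median was 0.02 (-0.11 without vehicle replicate 2). With the block 3 rose, PPP1R15A with DDIT3 (adjusted p = 0.0206) and the lipoprotein receptor gene VLDLR (0.65). DDIT4L, a relative of the mTORC1 inhibitor DDIT4, came up from 2.39 and 2.09 to 4.38 and 5.47, at least 1.90-fold over the floor (2.69 ± 0.31). Of 28 chaperones of the endoplasmic reticulum 0 were called, with ERN1, the stress sensor IRE1, at 0.87 ± 0.19 and ERO1B, an oxidase of that compartment, at 0.93 ± 0.26. Both were called with the block, at adjusted p-values of 0.0464 and 0.0445.

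Interferon genes, which restrain viruses, also moved both ways. USP18, which removes ISG15 from proteins and damps the interferon receptor, rose from 6.85 and 5.40 to 8.21 and 8.65, 4.93-fold (2.30 ± 0.40, adjusted p = 0.039 in limma). OAS3, which senses double-stranded RNA, rose from 6.91 and 6.92 to 7.82 and 7.92 (0.95 ± 0.13). SAMHD1, which depletes deoxynucleotides, fell from 11.23 and 10.67 to 9.58 and 8.56 (-1.88 ± 0.33, adjusted p = 0.041 in limma), and all its 6 probe sets were lower, by -0.90 to -2.59. Of 38 genes tested 2 rose and 1 fell, 28 lay above 0 and the median was 0.37 (0.21 without vehicle replicate 2). With the block 4 rose, the added genes being HERC5, a ligase for ISG15 (0.78), and IFIH1, the RNA sensor MDA5 (1.17). None of them was called without vehicle replicate 2 or without 3xEC50 replicate 2. IFNLR1, a receptor chain for lambda interferons, was called upward with both means below the floor, so it has no fold.

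The falls had fewer genes and no list in which more than 2 fell. SEMA3A, a secreted guidance cue, read 8.59 and 8.78 in vehicle and 6.15 and 5.14 at 3xEC50. Both treated arrays were far lower, an 8.22-fold fall (-3.04 ± 0.34, adjusted p = 0.00591 in limma), and its 3 probe sets ran from -3.04 to -1.92. It was the 1 called gene of 25 semaphorins, plexins, ephrins and other guidance genes, and with the block SEMA3G rose (0.98). KLHL14, a BTB-kelch protein of B cells, fell 7.76-fold, from 7.53 and 7.49 to 4.81 and 4.30 (-2.96 ± 0.37). MFAP3L, a membrane protein, fell from 6.47 and 6.45 to 4.64 and 4.24 (-2.02 ± 0.32). ADAMTS17, a secreted metalloprotease, fell from 6.95 and 6.61 to 5.29 and 4.89 (-1.69 ± 0.31, adjusted p = 0.0488 in limma), with 1 of its 3 probe sets at 0.16. Among 26 genes of the extracellular matrix both fell, and the collagen gene COL15A1 rose from 2.50 and 2.57 to 5.24 and 5.61, at least 2.69-fold over the floor (2.89 ± 0.52, adjusted p = 0.0446). With the block 2 of the 26 rose and 3 fell, adding TIMP2 (1.52) and ADAMTS6 (-0.87). The adaptor gene APBA1 (-1.65 ± 0.23), the kinesin gene KIF21A (-1.30 ± 0.21), the dystrobrevin gene DTNB (-1.26 ± 0.15) and the chromatin reader gene L3MBTL3 (-1.24 ± 0.23) were further falls. ADCY6, an adenylate cyclase, fell from 7.76 and 7.96 to 6.79 and 6.53 (-1.20 ± 0.17), the 1 call among 25 cyclic AMP genes. PER3 of the circadian clock fell from 6.82 and 6.95 to 5.89 and 5.55 (-1.17 ± 0.16), the 1 call among 15 clock genes without the block. The taurine transporter gene SLC6A6 (-1.20 ± 0.15), the formin gene DAAM1 (-0.81 ± 0.13), ENC1 (-0.82 ± 0.15), STOX2 (-1.12 ± 0.16), MBLAC2 (-0.78 ± 0.14) and the chloride transporter gene CLCN4 fell, the last to below the floor, at least 1.85-fold.

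Risers not yet described were spread over many functions. C1orf115 came up from 3.54 and 3.46 to 5.94 and 5.77, at least 3.62-fold over the floor (2.36 ± 0.37). RNF19B, a ubiquitin ligase (1.35 ± 0.19), the DNA glycosylase gene MPG (1.25 ± 0.22), WDSUB1 (1.10 ± 0.15), DTX4 (1.07 ± 0.20), CABLES1 (1.05 ± 0.18) and ALDH5A1, an enzyme of GABA breakdown (1.01 ± 0.18), each rose by more than 1 unit. MFHAS1 (0.98 ± 0.15), PDXDC1 (0.95 ± 0.17), PAQR8 (0.92 ± 0.17) and NIBAN2 (0.87 ± 0.16) rose by less. MBLAC1 rose from a vehicle mean of 4.02, at the floor, by 0.92 ± 0.16. PPFIBP2, the neuropeptide gene NPY and the chaperone gene DNAJB5 started below the floor and rose at least 1.75-fold, 1.51-fold and 1.16-fold. The probe sets of PDXDC1 ran from -0.70 to 0.95 and those of NIBAN2 from -0.15 to 0.87. Of the 87 called genes 54 had more than 1 probe set above the floor, and in 48 of these all went the same way. The same direction did not mean the same size. The weakest probe set gave 0.25 for MTMR14, 0.25 for CDS2, 0.26 for FMNL1 and 0.17 for TFDP2. For APBA1, DAAM1 and MBLAC2 it gave -0.32, -0.12 and -0.09. The other 33 called genes rested on 1 probe set above the floor, among them KLHL14 (1 of 3), PER3 (1 of 4) and SLC6A6 (1 of 5).

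**Figure D3:**
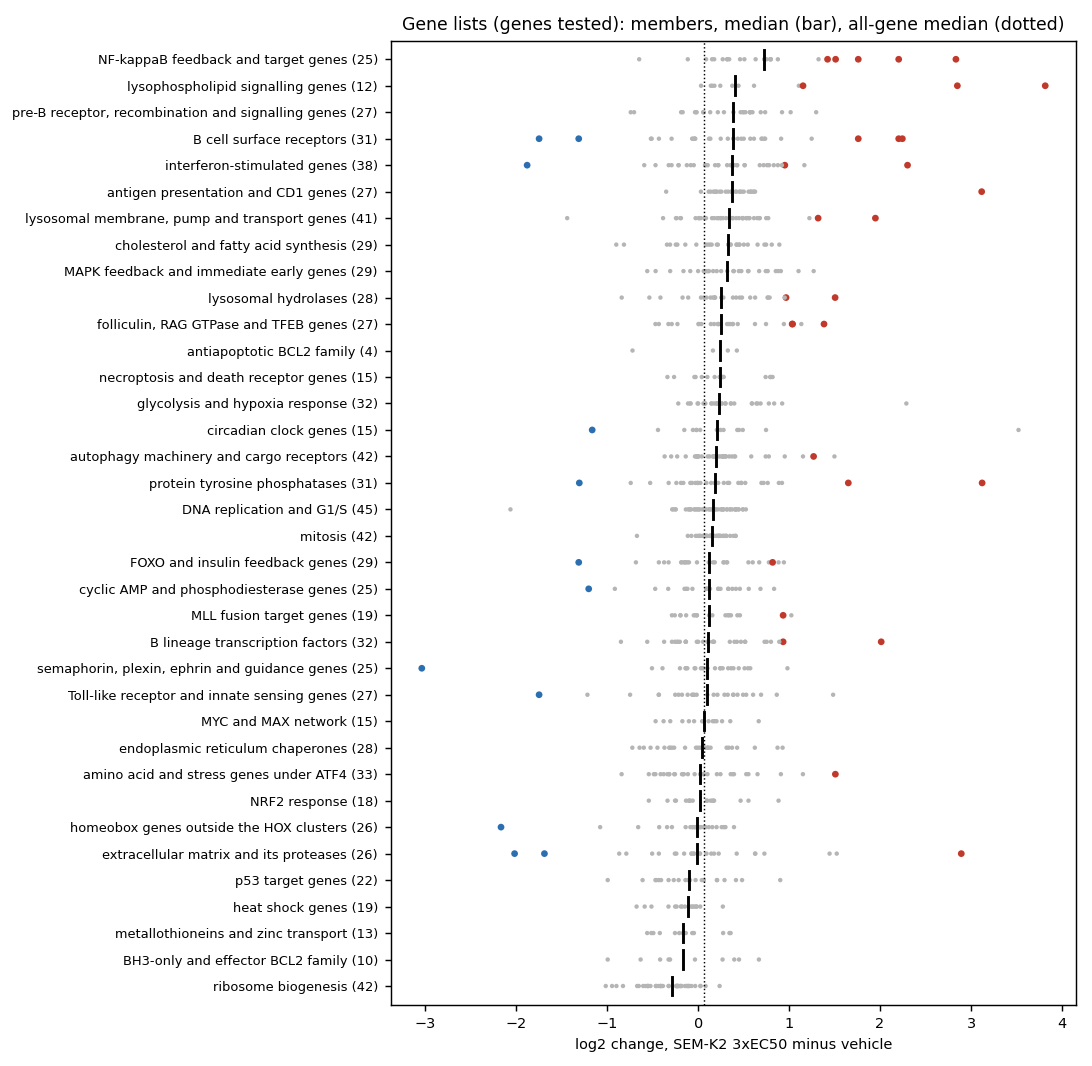
Log2 change, SEM-K2 3xEC50 minus vehicle, of each tested member (point) of the gene lists reported, with called members in red (higher) and blue (lower), the list median as a bar and the median of all genes, 0.06, as a dotted line. The NF-kappaB list has the highest median, 0.73, and ribosome biogenesis the lowest, -0.28, with no member called.

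Several lists had a median away from 0 without a called member, and most of these medians depended on single arrays. Of 42 genes of ribosome biogenesis, the assembly line of ribosomes in the nucleolus, 38 lay below 0, with a median of -0.28, and 20 had both treated arrays below both vehicle arrays while 0 had them above, where 14% and 22.6% of all genes did. The smallest p-values were those of WDR43 (-0.67 ± 0.15, adjusted p = 0.105 in limma) and NIP7 (-1.02 ± 0.27, adjusted p = 0.181). With the replicate block 2 of them fell, UTP20 (-0.90) and RRS1 (-0.56). Their median ran from -0.15 without 3xEC50 replicate 1 to -0.51 without 3xEC50 replicate 2. Of 19 heat shock genes 17 lay below 0 at a median of -0.11. Without vehicle replicate 2, or without 3xEC50 replicate 1, 10 lay below 0 and 9 above, at medians of -0.04 and -0.04, and without vehicle replicate 1 the median was -0.25. The smallest p-values were those of HSPB1 (-0.68 ± 0.24) and HSPA9, the mitochondrial chaperone (-0.51 ± 0.19). The 29 genes of cholesterol and fatty acid synthesis had a median of 0.33, 21 lay above 0, and the smallest p-values were those of SQLE (0.75 ± 0.16, adjusted p = 0.102) and ACSS2 (0.73 ± 0.19). With the block 3 of them rose, SQLE (adjusted p = 0.0411), INSIG1 (0.89) and SC5D (0.81). Their median was 0.04 without 3xEC50 replicate 1, 0.10 without vehicle replicate 2 and 0.52 without 3xEC50 replicate 2. Of 42 mitosis genes 37 lay above 0, as did 58.6% of all genes, at a list median of 0.15. Without vehicle replicate 2 this turned, with 15 mitosis genes above 0, 27 below and a median of -0.08. Without vehicle replicate 1 their median was 0.40. Of 45 genes of DNA replication 31 lay above 0 at a median of 0.16, which ran from 0.05 without 3xEC50 replicate 2 to 0.29 without 3xEC50 replicate 1. Of 13 metallothioneins and zinc transporters 10 lay below 0, with MT1X at -0.56 ± 0.22. The p53 target list, at a median of -0.11 (-0.17 without vehicle replicate 2 and -0.02 without 3xEC50 replicate 1), had CDKN1A, the cell cycle inhibitor p21, at 0.90 ± 0.26 and MDM2 at -0.46 ± 0.19. The glycolysis and hypoxia list had a median of 0.23 with 26 of 32 genes above 0. This also turned without vehicle replicate 2, to -0.06 with 11 above 0, while the median was 0.02 without 3xEC50 replicate 1 and 0.62 without vehicle replicate 1. With the block 2 of its genes rose, ENO2, an enolase (2.29), and the glucose transporter gene SLC2A3 (0.92). The lists of the NRF2 response and the MYC network had medians of 0.02 and 0.06, which were -0.13 and -0.01 without vehicle replicate 2, with MYC at -0.47 ± 0.19. By symbol, the 408 zinc finger genes had no called member, nor did 375 long noncoding RNAs, 81 respiratory chain subunits or 30 aminoacyl tRNA synthetases. With the block ZNF318, ZFP36L2, RBM26-AS1 and NARS2 of these were called. TARS3, a tRNA synthetase gene that the search by symbol had not taken in, also fell with the block (-1.52, adjusted p = 0.00984 in limma).

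Some of the largest changes in the ranking were not called without the replicate block. BHLHE40, a repressor linked to the circadian clock, read 5.15 and 2.67 in vehicle and 8.28 and 6.58 at 3xEC50. Its treated arrays were above both vehicle arrays, which were more than 2 units apart, and its change was 3.52 ± 0.80 (adjusted p = 0.12 in limma, and 0.0166 with the replicate block). ENO2 (2.29), CST7 (2.25), UAP1L1 (2.26), SMIM3 (2.23), PTGS1 (2.05), RAB37 (2.02) and CD300A (1.83) were the other 7 of the 8 largest uncalled rises, and in all 8 vehicle replicate 2 was lower than replicate 1 by more than 1 unit. With the block ENO2, CST7, SMIM3 (adjusted p = 0.0429 in limma) and RAB37 (adjusted p = 0.00825 in limma) were called. Among the 8 largest uncalled falls, SMG1P5 read 10.40 and 10.64 in vehicle and 10.13 and 6.03 at 3xEC50. Only replicate 2 was low. GINS4 read 9.52 and 9.29 against 9.52 and 5.17, and GNL3L 10.08 and 9.92 against 9.79 and 5.89. KCNK3 (-2.45), LOC102724587 (-2.21), LOC100190986 (-2.20), HINT3 (-2.17) and SH2D2A (-2.03) completed the 8, and in 7 of them 3xEC50 replicate 2 was lower than replicate 1 by more than 2 units. SH2D2A was called with the block (adjusted p = 0.0136 in limma). Across all genes 54 were lower by at least 2 units on 3xEC50 replicate 2 than on replicate 1 and 4 were higher, against 21 and 0 for the vehicle arrays and 6 and 1 for the EC50 arrays of SEM-K2. The part of RNA quality in these falls was not tested.

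**Figure D4:**
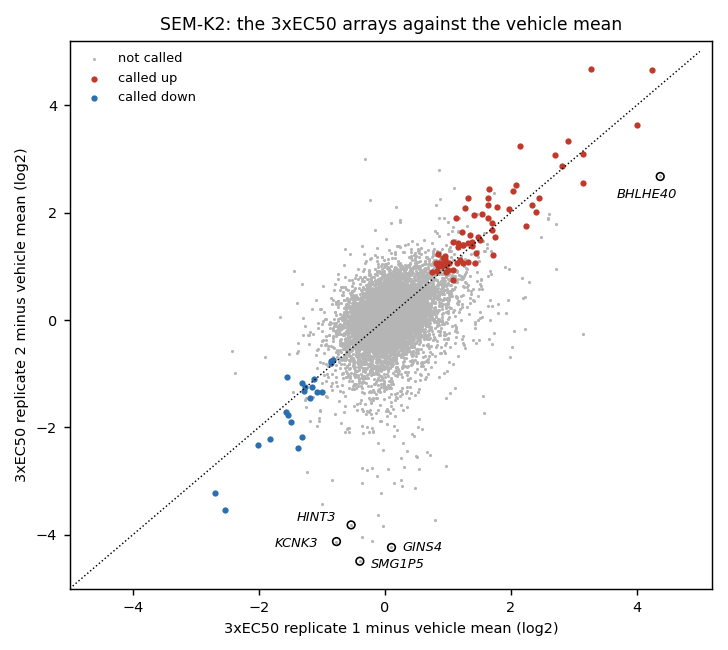
Each 3xEC50 array of SEM-K2 minus the vehicle mean (log2), replicate 1 on the x axis and replicate 2 on the y axis, 1 point per gene, with the diagonal dotted. Called genes lie along the diagonal, while SMG1P5, GINS4, HINT3 and KCNK3 (circled) are low on replicate 2 and not called.

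At EC50, the lower dose, the called genes were already displaced. The mean of the EC50 arrays lay between vehicle and 3xEC50 for 66 of 66 risen and 18 of 21 fallen genes, and beyond 3xEC50 for the other 3, which were MFAP3L, APBA1 and ADCY6. The median share of the 3xEC50 change reached at EC50 was 71.2% for the risen and 83.0% for the fallen genes. At EC50 18 genes were called against the same vehicle arrays, all of them among the 87. The 2 comparisons share those vehicle arrays, so they are given side by side only. Since the genes were chosen for a large change at 3xEC50, an EC50 mean short of it follows in part from the choice. The share of all genes with such an EC50 mean was not computed. KANK1, whose vehicle arrays were below the floor, stood at means of 6.58 at EC50 and 6.99 at 3xEC50. The changes of SEMA3A were -2.53 and -3.04, and those of BACH2 1.32 and 2.01. The step from EC50 to 3xEC50 was tested directly, and 0 genes (0%) were called by limma, with 233 at an unadjusted p under 0.05 and a smallest adjusted p of 0.187, that of DLX2. Its mean was 4.06 at EC50, at the floor, and 2.82 at 3xEC50, below it. SETBP1 and DDIT4L, which had EC50 means below the floor, and CD40 (1.04 ± 0.25) came further along the step by unadjusted p, each higher at 3xEC50 than at EC50. Without 3xEC50 replicate 1 the step had 36 called genes, 31 of them lower at 3xEC50, and without EC50 replicate 2 it had 1.

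In RS4:11, the other line, most genes called in SEM-K2 stood on the same side of 0 and nearer to it. At its own 3xEC50, 58 of the 66 risen genes lay above 0, where 54.0% of all genes did, and 17 of the 21 fallen genes lay below 0, where 46.0% did. The median change of the risen genes was 1.45 in SEM-K2 and 0.35 in RS4:11, and that of the fallen genes -1.31 and -0.29. Since the genes were chosen for a large change in SEM-K2, a smaller change elsewhere follows in part from the choice. Of the risen genes 14, and of the fallen genes 8, had RS4:11 means below the floor with vehicle and at 3xEC50. Their sign and size could not be read in RS4:11, yet they enter the counts and medians above. Among genes above the floor there in either condition, 46 of 52 risen and 13 of 13 fallen genes had the same sign in both lines. Across all 10561 genes the changes of the lines correlated at r = 0.40 (0.38 by Spearman's rank correlation), a description over genes that share arrays. USP18 stood at 2.66 in RS4:11 and 2.30 in SEM-K2, GPR18 at 1.45 and 2.85, TNFAIP3 at 1.36 and 2.83, and PTPRE at 1.27 and 3.12.

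The difference between the lines in the 3xEC50 response, SEM-K2 minus RS4:11, was called by limma for 4 genes (0.0379%), with 390 at an unadjusted p under 0.05. These were KANK1 (adjusted p = 0.000258), CD1A (0.0103), DLX2 (0.0103) and ENPP2 (0.026). None of the 4 exceeded the floor on any RS4:11 array, where KANK1 ran from 2.22 to 2.59, ENPP2 from 2.40 to 2.87, CD1A from 2.52 to 2.62 and DLX2 from 2.55 to 2.58. A response in RS4:11 could not be read for these genes, so the size of the difference is not given. Counted from the floor, the changes in SEM-K2 were at least 2.99 for KANK1, 2.85 for ENPP2 and 2.02 for CD1A, and -0.99 or lower for DLX2. STARD13 was next (adjusted p = 0.0537) and was below the floor in RS4:11 too. The p-values rest in part on values below the floor, which hardly vary and enter the shared spread of each such gene. In all 22 of the 87 called genes were below the floor on all 6 RS4:11 arrays. A fit of the 6 SEM-K2 arrays alone called 3 genes, KANK1 (adjusted p = 0.00592), C1orf115 (0.0286) and BACH2 (0.0348), with CD1A and DLX2 at 0.0547. A fit of the 4 vehicle and 3xEC50 arrays alone called 0, with KANK1 at an adjusted p of 0.111.

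**Figure D5:**
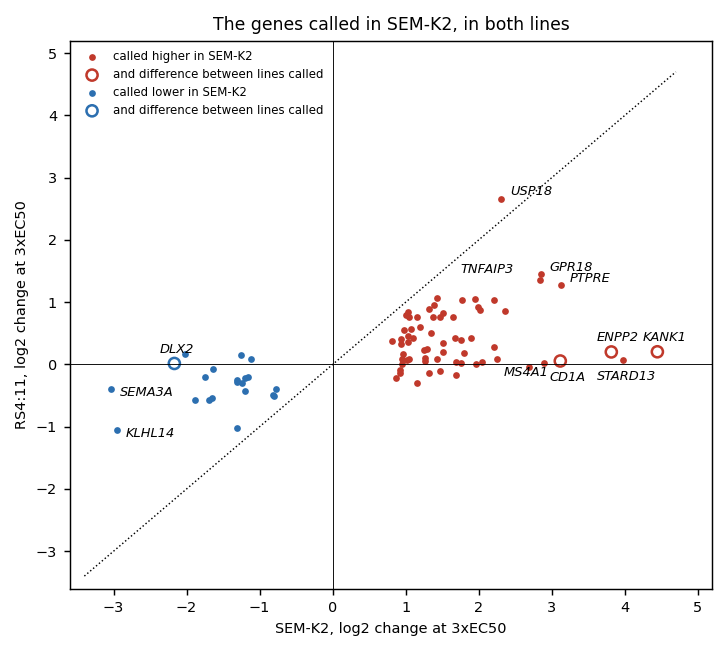
Log2 change at 3xEC50 in SEM-K2 (x axis) and in RS4:11 (y axis) for the 87 genes called in SEM-K2, red for higher and blue for lower, with the line of equal change dotted. KANK1, ENPP2, CD1A and DLX2, ringed, were called for the difference between the lines, and USP18 lies above the line of equal change.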

How the data were processed

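Per the submitters' processing notes the authors used GCRMA (version not given). GCRMA corrects background by probe sequence and normalises arrays by quantiles. The scale was read as log2 from the values the authors deposited, which ran from 0.64 to 16.2. Scanner files were not used here, and precision is limited by how many arrays there are. Of 54675 probe sets, 41097 had 1 gene symbol in the platform annotation, and 41043 of these matched RefSeq (GRCh38.p14) by Entrez identifier. The 1801 with several symbols and the 11777 not listed were left unnamed.

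Each of 19775 genes was represented by its probe set of highest mean over 12 arrays, and 10561 genes with values above 4 on at least 2 arrays were tested. SETBP1, DDIT4L and DNAJB5 passed this filter only through the SEM-K2 3xEC50 arrays, and CLCN4 only through the SEM-K2 vehicle arrays. KANK1, ENPP2, STARD13, CD1A, CD300LF, COL15A1 and NPY passed it only through SEM-K2 arrays with obatoclax. Such genes were tested only because of the group where they were high, so the direction of their change was built into the filter. Limma 3.58.1 in R 4.3.3 fitted 6 group means over all arrays (6 residual and 3.27 prior degrees of freedom), with Benjamini-Hochberg adjustment and a threshold of 0.05. An exact permutation test of 2 against 2 samples cannot go below p = 0.333. On simulated data with the real means and spreads, the same code was tested for this comparison. Same-numbered samples deviated together in all 15 pairs of groups (correlations 0.19 to 0.60, and 0.35 for vehicle and 3xEC50 of SEM-K2). The replicate numbers were therefore taken as pairs in an alternative with a block, while the main fit had no block. The block is given where it changes a call named or moves a reported count by over 1.5 times. Alternatives were the block, each array left out, fewer arrays in the fit, the filter, the choice of probe set, and the trend and centring settings.

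The rule for named genes took all called genes, with array values for the 20 largest rises and 12 largest falls by a floored change, up to 3 called members of each of 42 lists or the 2 with the smallest p, the 8 largest uncalled changes each way, genes called between lines, and the antiapoptotic BCL2 family. Genes beyond this rule that are given as values beside a list (such as FNIP1, RELB, PAX5 and VPREB3) or as added by the block were chosen after their values were seen. Results for 1 of the lists and 1 called gene are not reported here. The comparison, lists and rule were chosen with earlier results of these data known. Promoter sequences, 250 bases before the first listed start, were found for 66 of the 87 called genes.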

Additional observations from a re-analysis of the deposited data

Results flagged for a closer look

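The difference between the lines in the 3xEC50 response (SEM-K2 minus RS4:11), tested in limma, was called for KANK1 (4.24), ENPP2 (3.62), CD1A (3.06) and DLX2 (-2.18). None of these genes exceeded the floor on an RS4:11 array, so these log2 differences are not measured sizes. Counted from the floor, the changes in SEM-K2 were at least 2.99, 2.85 and 2.02 for the first 3, and -0.99 or lower for DLX2. Signal outside the comparison was seen in the control probe sets, where the 3' minus 5' difference of ACTB was 1.97 on SEM-K2 3xEC50 replicate 2, above that of every other array. It was also seen in 6 probe sets with no gene name that were called when every probe set was tested. Of these, 2 were higher at 3xEC50, by 1.78 ± 0.23 and 1.23 ± 0.19. The other 4 were lower, with changes of -1.86 ± 0.18, -1.66 ± 0.25, -1.43 ± 0.19 and -1.35 ± 0.20. Groups of 2 samples are too small for a test of outlying samples.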

How the results depend on the processing

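Of 87 genes, the replicate block made 220, and a block per line 299. Leaving out 1 array gave 14 to 169. A fit of the 6 SEM-K2 arrays gave 3 genes, a fit of the 4 arrays compared 0 (both with fewer degrees of freedom left), and averaging each gene's probe sets 44. The filter above 5 (80), no filter (67), no _x_at probe sets (85), trend and robust settings (81), centring (84) and every probe set tested alone (74) stayed within 1.5 times as counts. Of the 87 genes 43 were kept without the filter, 73 with trend and robust settings, 76 with centring and 83 without _x_at probe sets, the stricter filter kept all 80 it tested, and averaged probe sets kept 38 of 78. The step between doses, 0 genes, gave 3 without the filter and 0 to 36 with an array left out. The difference between lines, 4 genes, gave 7 with a block per line and 1 to 20 with an array left out (20 without SEM-K2 3xEC50 replicate 1). PDXDC1 had -0.0041 when its probe sets were averaged, and GINS4 had 0.11 without SEM-K2 3xEC50 replicate 2 and -4.23 without replicate 1; the cause was not tested. With the block no call was lost. With 2 arrays a group, changes under about 0.8 were not called, so a gene that missed the threshold is not shown to be without change.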
